A study of Homo sapiens with 21 samples.

Results

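The genes described here are the human translation initiation and elongation factors, 58 protein-coding genes among the 65065 genes of the count table. They were chosen by symbol, from EIF1 to EIF6 and EEF1 and EEF2 on the primary chromosomes, without the eIF2 kinases, EIF2D, the eEF1A methyltransferases, EEF2K, EEF2KMT, Y-linked genes and pseudogenes. After a filter on low counts 55 of the 58 could be tested, out of 19556 genes tested in all.

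The cells were HCT-116, an established human colorectal carcinoma line kept in DMEM with exosome-depleted serum. The treated cells received extracellular vesicles (EVs) from the serum of patients with hepatocellular carcinoma (HCC+ EVs) or of healthy people (HCC- EVs), isolated by the GlyExo-Capture method, at 0.048, 0.24 or 1.2 mg/mL. Blank cells received none. Each of the 7 groups held 3 libraries of polyA RNA, 21 in all, and the labels tie no library to a culture or a serum donor, so p-values measure the spread between libraries, which may be technical. The exposure time is not given in the sources used here.

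Translation of an mRNA starts when eIF2, bound to GTP and the initiator tRNA, joins the small ribosomal subunit together with eIF1, eIF1A, eIF3 and eIF5. The mRNA is brought in by the cap-binding protein eIF4E, the scaffold eIF4G and the helicase eIF4A, and 4E-BP proteins block this step by holding eIF4E until the kinase mTOR phosphorylates them. After start codon selection eIF5B joins the large subunit, and eEF1A and eEF2 then drive elongation by delivering aminoacyl-tRNA and moving the ribosome along. Many mRNAs of the translation apparatus begin with a C followed by a run of pyrimidines (a 5' TOP start), through which mTOR and the protein LARP1 control their translation and stability.

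RefSeq (GRCh38.p14) held a promoter for 48 of the 58 members. A start of this kind is C at the annotated first base followed by at least 4 bases that are C or T. It was found in 12 of the 48 (25.0%), against 5.142% of all 27305 genes with a promoter. A gene counted if any of its listed starts matched. The 27305 genes outnumber the 19960 protein-coding genes of the count table, so they are not limited to protein-coding genes as the members are. These 12 were EEF1A1, EEF1B2, EEF2, EIF2A, EIF2S3, EIF2S3B, EIF3D, EIF3F, EIF3K, EIF3M, EIF4A2 and EIF4B. The starts of 8 of them are shown, picked by their values at 1.2 mg/mL as examples of both outcomes: the first 4 were not called lower in either comparison with the blank, and the last 4 were called lower in both. Of the other tested members with such a start, EIF2S3 was called lower in both, EIF2A with HCC- EVs and EIF3F in neither. In all, 5 of the 11 tested members with this start were called lower with HCC+ EVs and 6 with HCC- EVs, beside 20 and 25 of the 34 tested members whose promoter lacks it. Each line gives 40 bases before the annotated start and the 20 bases from it, on the gene's strand, with the run of pyrimidines at the start in capitals.
EEF1A1, chr6:73521013-73521072, minus strand: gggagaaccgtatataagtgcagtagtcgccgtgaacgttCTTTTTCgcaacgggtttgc
EEF2, chr19:3985444-3985503, minus strand: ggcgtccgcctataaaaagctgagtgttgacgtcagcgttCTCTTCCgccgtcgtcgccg
EIF4B, chr12:53006416-53006475, plus strand: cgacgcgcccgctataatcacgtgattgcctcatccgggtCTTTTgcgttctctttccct
EIF4A2, chr3:186783537-186783596, plus strand: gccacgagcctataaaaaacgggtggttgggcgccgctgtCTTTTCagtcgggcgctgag
EEF1B2, chr2:206159855-206159914, plus strand: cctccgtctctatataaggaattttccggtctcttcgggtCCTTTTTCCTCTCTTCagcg
EIF3D, chr22:36529147-36529206, minus strand: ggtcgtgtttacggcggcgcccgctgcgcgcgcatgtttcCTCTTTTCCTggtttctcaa
EIF3K, chr19:38619148-38619207, plus strand: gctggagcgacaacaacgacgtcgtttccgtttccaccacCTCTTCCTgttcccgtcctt
EIF3M, chr11:32583791-32583850, plus strand: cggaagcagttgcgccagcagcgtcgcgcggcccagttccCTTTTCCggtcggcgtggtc

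The pyrimidine run of EEF1B2 is 16 bases long and that of EIF4B 5 bases. The first 5 of these genes also hold TATAA in the 40 bases before the start, a search added after the values were seen. That match was found in 7 of the 48 members (14.58%), namely EEF1A1, EEF1B2, EEF2, EIF1, EIF4A1, EIF4A2 and EIF4B, against 5.468% of all genes with a promoter. The E-box CACGTG, on either strand from 250 bases before to 50 after the start, was in 11 of the 48 (22.92%), against 8.775% of all such genes. TGATGNAA, a form of the element bound by CHOP and ATF4, was in 1 of the 48, EIF4E3 (2.083%), against 4.457% of all such genes, in the same window and on either strand. These are matches of letters only, and the searched motifs can overlap each other.

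Levels are given as CPM, read counts put on one common library size with TMM factors, and between genes as RPKM, the same values per kilobase of exon. EEF1A1, the main eEF1A gene of most tissues, had the highest level of the 58 at a mean of 2392 RPKM over the 21 libraries, followed by EEF2 at 1061, EIF5A at 335, EEF1B2 at 286 and EIF4H at 205 RPKM. EEF1A1 alone took 1.43% ± 0.0853 of all counts with HCC+ EVs at 1.2 mg/mL, 1.74% ± 0.0687 with HCC- EVs at 1.2 mg/mL and 1.24% ± 0.0461 in the blank (SD, n = 3). The 57 other members together took 1.804% ± 0.0175, 1.82% ± 0.0115 and 1.89% ± 0.0245 in the same 3 groups. Of the members without a test, EEF1G, a subunit of the eEF1 exchange factor, and the readthrough gene EEF1E1-BLOC1S5 were listed at 0 in every library. The exons of EEF1G lie to 99.73% within same-strand exons of another gene of the table, ENSG00000255508, and those of EEF1E1-BLOC1S5 wholly within other genes, so that a 0 here says nothing about expression. EIF2S3B, a copy of EIF2S3, had at most 10 counts in a library. EIF4A1 overlaps 5 other genes over 48.6% of its exons on the same strand and had 3857 counts in all, and its level, 0.74 RPKM, cannot be read as that of its mRNA.

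At 1.2 mg/mL of HCC+ EVs, 31 of the 55 tested factors fell against the blank and none rose, with 36 at an unadjusted p under 0.05. Among all tested genes 33.0% were called, 17.4% lower and 15.6% higher, and among the 9562 tested genes with a mean of at least 10 CPM 30.6% and 18.0%, where 31 of 50 factors were lower. The median log2 change of the 55 was -0.27, against 0.01 for all tested genes. Over genes of at least 10 CPM the median was -0.06, and over the 50 factors among them -0.26. At 1.2 mg/mL of HCC- EVs 40 of the 55 fell and 1 rose, at a background of 53.3% called, 28.5% lower and 24.8% higher, or 49.9% and 21.8% among genes of at least 10 CPM, where 38 of 50 factors were lower. The median was -0.47, against 0.05 for all tested genes. Over genes of at least 10 CPM it was -0.19, and over the 50 factors among them -0.49. Called here means an adjusted p under 0.05 from edgeR's quasi-likelihood test with Benjamini-Hochberg adjustment over all tested genes. Both comparisons use the same 3 blank libraries. CPM are relative levels in bulk RNA, in which fewer cells of a type and less RNA per cell cannot be told apart.

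The counts depended on the scaling. With library totals in place of TMM factors, the median of all tested genes moved by 0.12 (log2) with HCC+ EVs and by 0.28 with HCC- EVs. The factors then split into 5 higher and 22 lower with HCC+ EVs, and 13 higher and 29 lower with HCC- EVs. Of the lower calls with HCC+ EVs, those of EIF2B1, EIF2B3, EIF3A, EIF3B, EIF4G2, EIF4H, EIF4ENIF1, EIF5A2 and EEF1D were not made on library totals. Of those with HCC- EVs, EIF1, EIF1AD, EIF2A, EIF3B, EIF3E, EIF3G, EIF4E2, EIF4EBP2, EIF4G1 and EIF4G2 were not called, and EIF3L was called higher. All changes below are on the TMM scale, and so relative to the bulk of the other genes.

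**Figure D1:**
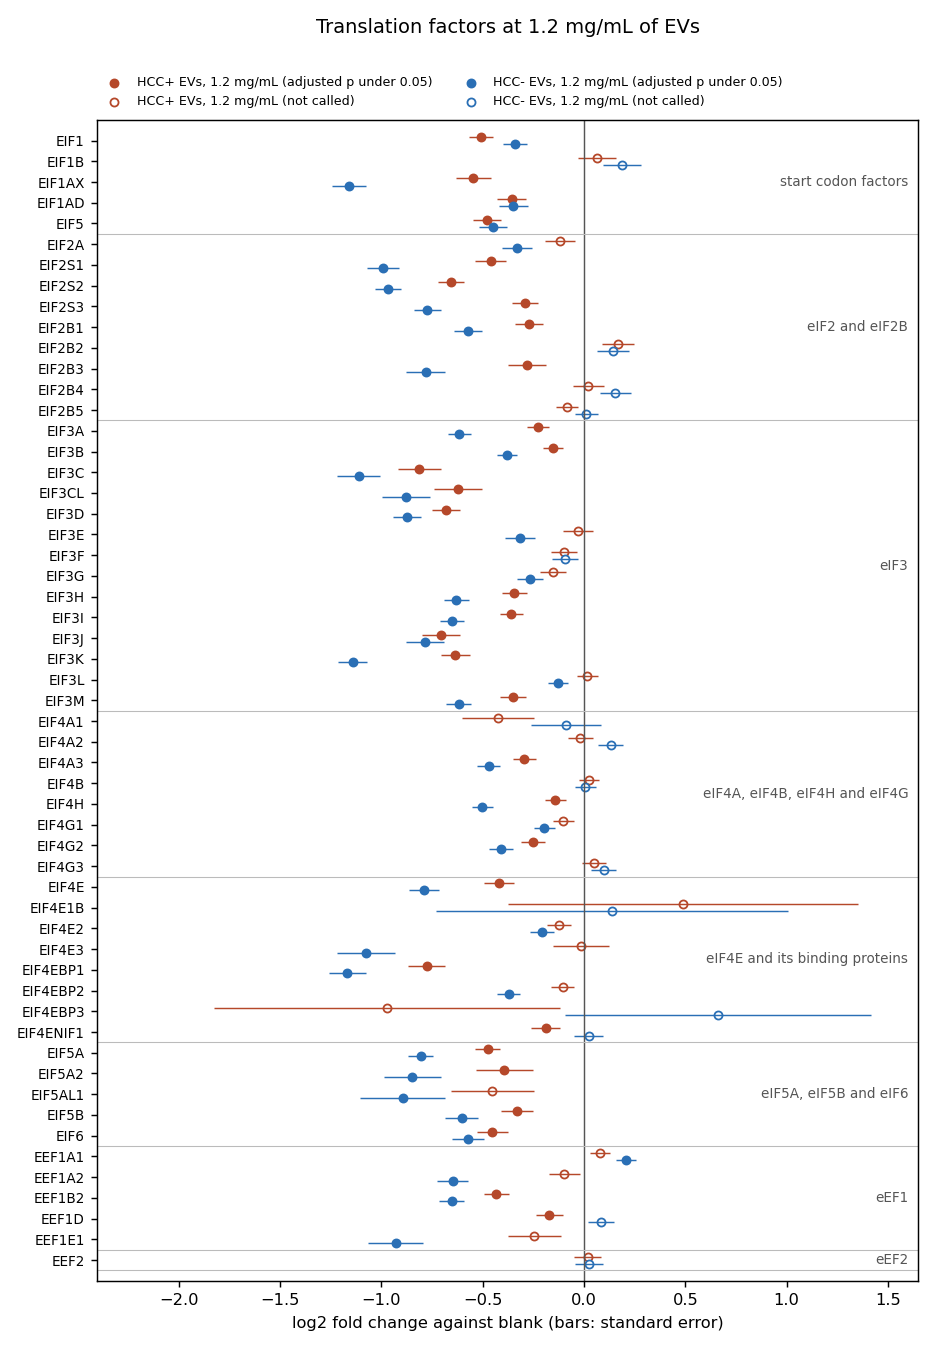
Log2 fold change against the blank of the 55 tested factors at 1.2 mg/mL of HCC+ EVs (red) and HCC- EVs (blue), grouped by role, with bars of 1 standard error; filled points had an adjusted p under 0.05. Most points lie left of 0, with EIF1AX, EIF3K and EIF4EBP1 farthest left among the HCC- points at -1.16, -1.14 and -1.17, while EEF2 and EIF4B lie at 0.02 and between 0.01 and 0.02. The wide bars belong to EIF4E1B and EIF4EBP3, which had 151 and 117 counts in all.

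Among the genes grouped here as start codon factors 4 of 5 fell with each source, all but EIF1B, a close paralog of EIF1. Among all genes of at least 10 CPM, 30.6% were called lower with HCC+ EVs and 49.9% with HCC- EVs. EIF1AX encodes eIF1A, which with eIF1 keeps the scanning ribosome open. It had 134, 171 and 147 CPM with HCC+ EVs, 108, 96.0 and 90.6 CPM with HCC- EVs, and 247, 194 and 218 CPM in the blank. The 3 groups did not overlap, with HCC- lowest. The log2 changes were -0.55 ± 0.08 (SE, adjusted p = 7.09e-06) and -1.16 ± 0.09 (adjusted p = 7.25e-13). EIF1, which guards against initiation at wrong codons, had 279, 307 and 296 CPM with HCC+ EVs, 323, 312 and 356 CPM with HCC- EVs, and 431, 434 and 388 CPM in the blank. Here the HCC+ libraries were the lowest, at -0.51 ± 0.06 (adjusted p = 1.35e-07), against -0.34 ± 0.06 (adjusted p = 1.98e-05) with HCC- EVs. On library totals the HCC- change of EIF1 was -0.0560 (adjusted p = 0.390) and was not called. EIF5, the GTPase activator of eIF2, had 221, 266 and 248 CPM with HCC+ EVs, 256, 237 and 259 CPM with HCC- EVs, and 378, 300 and 346 CPM in the blank. All treated libraries lay below all blank libraries, at -0.48 and -0.45, both ± 0.07. EIF1AD, named for its eIF1A-like domain and placed in this group by its symbol, was also lower with both sources, at -0.36 and -0.35. On library totals its HCC- change was -0.0650, not called. Whether EIF1AD takes part in start codon choice was not tested. EIF1B averaged 35.0 ± 3.03 CPM with HCC+ EVs, 38.1 ± 1.24 with HCC- EVs and 33.5 ± 3.28 in the blank (SD, n = 3), and was not called.

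The 3 subunits of eIF2, which carries the initiator tRNA, fell with each source. EIF2S1, the alpha subunit and the site that the stress kinases phosphorylate, had 146, 175 and 159 CPM with HCC+ EVs, 124, 98.9 and 110 CPM with HCC- EVs, and 238, 197 and 227 CPM in the blank. The groups did not overlap, and the changes were -0.46 ± 0.08 (adjusted p = 2.08e-05) and -0.99 ± 0.08 (adjusted p = 2.59e-12). EIF2S2, the beta subunit, had 208, 228 and 203 CPM with HCC+ EVs, 184, 161 and 170 CPM with HCC- EVs, and 357, 309 and 342 CPM in the blank. It changed by -0.66 ± 0.06 (adjusted p = 2.85e-09) and -0.97 ± 0.06 (adjusted p = 7.01e-14). EIF2S3, the gamma subunit that binds GTP and the tRNA, had 308, 356 and 338 CPM with HCC+ EVs, 257, 233 and 227 CPM with HCC- EVs, and 443, 364 and 420 CPM in the blank. With HCC+ EVs its fall was the smallest of the 3, at -0.29 ± 0.07 (adjusted p = 0.000838), and with HCC- EVs it was -0.77 ± 0.07 (adjusted p = 2.01e-11).

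The exchange factor eIF2B, which reloads eIF2 with GTP, had 2 of its 5 genes called. This is beside 30.6% of all genes of at least 10 CPM called lower with HCC+ EVs and 49.9% with HCC- EVs. EIF2B1, the alpha subunit, and EIF2B3, the gamma subunit, fell with each source, by 0.27 and 0.28 with HCC+ EVs and by 0.57 and 0.78 with HCC- EVs on the log2 scale. EIF2B2, EIF2B4 and EIF2B5, the beta, delta and epsilon subunits, were not called in either comparison, with changes of 0.17, 0.02 and -0.08 with HCC+ EVs and 0.14, 0.16 and 0.01 with HCC- EVs. With library totals these 3 were called higher with HCC- EVs, at 0.43, 0.44 and 0.29. EIF2B3 had 17.05, 19.9 and 17.6 CPM with HCC+ EVs, 13.4, 12.5 and 12.8 CPM with HCC- EVs, and 21.6, 24.3 and 20.4 CPM in the blank. Its HCC+ call was lost in 3 of the 21 fits with a library left out, those without HCC+ replicate 1 (-0.23), HCC+ replicate 3 (-0.26) or blank replicate 2 (-0.21). EIF2A, a separate factor that can also deliver initiator tRNA, was called with HCC- EVs, at -0.33, and not with HCC+ EVs, at -0.12 (adjusted p = 0.232).

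Of the 14 genes of eIF3, the large scaffold that binds the small ribosomal subunit, 10 fell with HCC+ EVs and 13 with HCC- EVs, and none rose. The shares called lower among all genes of at least 10 CPM were 30.6% and 49.9%. EIF3K had 104, 108 and 113 CPM with HCC+ EVs, 75.3, 80.1 and 73.2 CPM with HCC- EVs, and 156, 188 and 161 CPM in the blank. The groups did not overlap, and the changes were -0.63 ± 0.07 (adjusted p = 4.09e-08) and -1.14 ± 0.07 (adjusted p = 2.14e-14). EIF3D, a subunit that can itself bind the cap, had 220, 229 and 229 CPM with HCC+ EVs, 192, 209 and 192 CPM with HCC- EVs, and 350, 389 and 347 CPM in the blank. Both treated groups lay far below the blank, at -0.68 ± 0.07 (adjusted p = 5.14e-09) and -0.87 ± 0.07 (adjusted p = 2.85e-12). EIF3I, a small subunit with WD repeats, had 273, 282 and 287 CPM with HCC+ EVs, 230, 241 and 217 CPM with HCC- EVs, and 352, 380 and 348 CPM in the blank, with changes of -0.36 ± 0.06 and -0.65 ± 0.06. EIF3J, a loosely bound subunit, changed by -0.71 and -0.78. EIF3B, a core subunit, changed by -0.15 and -0.38, and its HCC+ call was lost without HCC+ replicate 1 (-0.12) or 2 (-0.14) or without blank replicate 3 (-0.14).

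EIF3F, the eIF3 gene called with neither source, had 216, 214 and 217 CPM with HCC+ EVs, 209, 215 and 225 CPM with HCC- EVs, and 218, 257 and 217 CPM in the blank, and was not called with either source (-0.10 and -0.09, both ± 0.06). EIF3L, EIF3E and EIF3G were called with HCC- EVs, at -0.13, -0.31 and -0.27, and not with HCC+ EVs, at 0.02, -0.03 and -0.15. EIF3L and EIF3G had positive changes with HCC- EVs when library totals were used, of 0.15 and 0.02. The call of EIF3L was lost in 5 of the 21 fits with a library left out, at -0.12 to -0.10 in these fits: those without HCC+ replicate 2 or 3 or HCC- replicate 1 or 2 at 1.2 mg/mL, or without blank replicate 1. EIF3L shares 41.13% of its exon bases with another gene on the same strand. EIF3C and EIF3CL are near-identical copies whose reads may be split between them. They averaged 24.6 ± 3.18 and 8.35 ± 0.947 CPM with HCC+ EVs, 20.004 ± 2.39 and 7.01 ± 0.539 CPM with HCC- EVs, and 43.2 ± 6.86 and 12.8 ± 2.34 CPM in the blank (SD, n = 3). Their falls of 0.81 and 0.62 with HCC+ EVs and of 1.11 and 0.88 with HCC- EVs (log2) are uncertain for that reason.

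Of the 8 genes of the cap-associated helicase and scaffold, 3 fell with HCC+ EVs and 4 with HCC- EVs. Among all tested genes 17.4% and 28.5% were called lower, and among those of at least 10 CPM 30.6% and 49.9%. The shares of the 8 genes are near the latter, although EIF4A1, at a mean of 3.95 CPM, lies below that cutoff. EIF4H, which like eIF4B stimulates the helicase eIF4A, had 594, 641 and 650 CPM with HCC+ EVs, 486, 499 and 484 CPM with HCC- EVs, and 687, 723 and 671 CPM in the blank. The fall with HCC+ EVs was slight, at -0.14 ± 0.05 (adjusted p = 0.0335), and was not called without HCC+ replicate 1 (-0.09) or without blank replicate 1 (-0.15) or 2 (-0.11). With HCC- EVs it was -0.50 ± 0.05 (adjusted p = 1.05e-09). EIF4A3, the eIF4A relative of the exon junction complex, had 353, 352 and 352 CPM with HCC+ EVs, 306, 318 and 312 CPM with HCC- EVs, and 437, 453 and 406 CPM in the blank. All its treated libraries lay below the blank, at -0.29 ± 0.06 (adjusted p = 0.000137) and -0.47 ± 0.06 (adjusted p = 2.45e-08). EIF4G2, a scaffold that does not bind eIF4E, had 1241, 1421 and 1322 CPM with HCC+ EVs, 1249, 1147 and 1172 CPM with HCC- EVs, and 1685, 1435 and 1618 CPM in the blank, at -0.25 ± 0.06 and -0.41 ± 0.06. On library totals both changes of EIF4G2 were -0.13, and neither was called (adjusted p = 0.0794 and 0.0605).

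EIF4B, the other stimulator of eIF4A, had 824, 875 and 873 CPM with HCC+ EVs, 862, 869 and 808 CPM with HCC- EVs, and 890, 791 and 847 CPM in the blank. The groups overlapped, and the differences of 0.02 (95% interval -0.08 to 0.13) and 0.01 (-0.10 to 0.11) were not called. On library totals EIF4B was called higher with both, at 0.14 and 0.29. EIF4A2, the second eIF4A helicase, had 414, 455 and 424 CPM with HCC+ EVs, 502, 438 and 494 CPM with HCC- EVs, and 454, 401 and 455 CPM in the blank, with changes of -0.02 and 0.13 (adjusted p = 0.855 and 0.0706). EIF4G1, the main scaffold, was called with HCC- EVs, at -0.19 ± 0.05, and not with HCC+ EVs, at -0.10, and its sign turned on library totals, at 0.09 with HCC- EVs. EIF4G3 was not called, at 0.05 and 0.10.

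**Figure D2:**
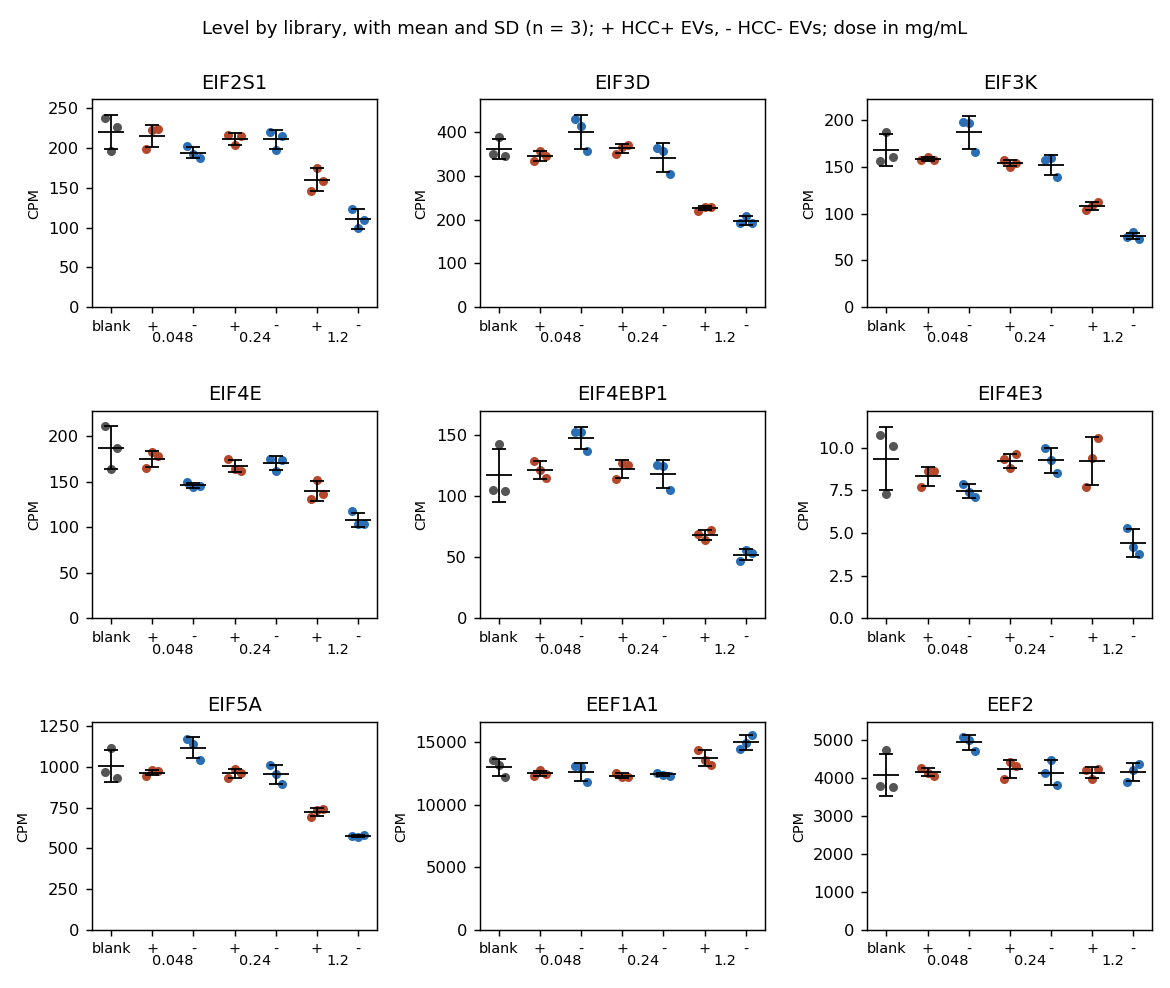
CPM of 9 factors in each of the 21 libraries, with the mean and SD of each group (n = 3), the blank at the left and then 0.048, 0.24 and 1.2 mg/mL with HCC+ (red) left of HCC- (blue). In the first 5 panels and in EIF5A the means at 1.2 mg/mL of both sources lie lowest, although 1 HCC+ library of EIF4E (152 CPM) lies above the HCC- libraries at 0.048 mg/mL, in EIF4E3 the HCC- libraries at 1.2 mg/mL do (3.77 to 5.31 CPM), and EEF1A1 and EEF2 show no fall.

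Of the 8 genes of eIF4E and its partners, 3 fell with HCC+ EVs and 5 with HCC- EVs. These were 37.5% and 62.5%, beside 17.4% and 28.5% called lower among all tested genes. Among genes of at least 10 CPM 30.6% and 49.9% were called lower. EIF4E1B, EIF4EBP3 and EIF4E3, at means of 0.148, 0.118 and 8.18 CPM, lie below that cutoff, so the 8 genes are not matched to it. EIF4EBP1, the best known mTOR-controlled inhibitor of eIF4E, had 69.1, 64.2 and 72.1 CPM with HCC+ EVs, 47.4, 55.7 and 53.7 CPM with HCC- EVs, and 105, 142 and 104 CPM in the blank. The groups did not overlap, at -0.78 ± 0.09 (adjusted p = 9.33e-08) and -1.17 ± 0.09 (adjusted p = 3.39e-12). EIF4EBP2, its paralog, had 127, 142 and 141 CPM with HCC+ EVs, 113, 114 and 115 CPM with HCC- EVs, and 149, 139 and 154 CPM in the blank, at -0.11 (adjusted p = 0.163) and -0.37 ± 0.06 (adjusted p = 1.94e-06). EIF4EBP3 had at most 0.225 CPM in these libraries and shares 73.16% of its exon bases with the readthrough gene ANKHD1-EIF4EBP3, so nothing can be read from it.

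EIF4E, the cap-binding protein, had 131, 152 and 137 CPM with HCC+ EVs, 117, 103 and 104 CPM with HCC- EVs, and 211, 164 and 187 CPM in the blank. It was lower with both sources, at -0.42 ± 0.07 (adjusted p = 4.19e-05) and -0.79 ± 0.07 (adjusted p = 1.33e-10). EIF4E3, a cap-binding relative, was a low gene that separated the sources. It had 7.71, 9.40 and 10.5 CPM with HCC+ EVs, 5.31, 4.17 and 3.77 CPM with HCC- EVs, and 10.7, 7.26 and 10.1 CPM in the blank. The HCC+ libraries lay among the blank libraries (-0.01 ± 0.14), and the HCC- libraries lay below all 6 others (-1.07 ± 0.14, adjusted p = 1.59e-07). EIF4E2, a cap-binding protein linked to repression, changed by -0.12 (adjusted p = 0.119) and -0.21 (adjusted p = 0.00445), and on library totals its HCC- change was 0.08. EIF4ENIF1, the eIF4E transporter, was called lower with HCC+ EVs, at -0.19, in a call lost in 13 of the 21 fits with a library left out (-0.20 to -0.17 over all 21).

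Of eIF5A, eIF5B and eIF6, all 5 genes fell with HCC- EVs and 4 with HCC+ EVs. The shares called lower among all genes of at least 10 CPM were 49.9% and 30.6%. EIF5AL1, at a mean of 1.93 CPM, lies below that cutoff. EIF5A, the hypusine-carrying factor that frees stalled ribosomes, had 692, 734 and 742 CPM with HCC+ EVs, 573, 569 and 584 CPM with HCC- EVs, and 969, 1117 and 929 CPM in the blank. The groups did not overlap, at -0.48 ± 0.06 (adjusted p = 3.03e-07) and -0.81 ± 0.06 (adjusted p = 9.76e-13). EIF5A2, its paralog, averaged 15.1 ± 2.79 CPM with HCC+ EVs, 11.01 ± 2.25 with HCC- EVs and 19.9 ± 2.82 in the blank (SD, n = 3), at -0.39 ± 0.14 (adjusted p = 0.0298) and -0.85 ± 0.14. The HCC+ call of EIF5A2 was lost without replicate 1 or 3 of either the HCC+ or the blank libraries, at -0.40 to -0.29. EIF6, which keeps the large subunit from joining too early, had 87.9, 84.5 and 87.9 CPM with HCC+ EVs, 73.2, 82.3 and 84.1 CPM with HCC- EVs, and 112, 130 and 114 CPM in the blank, at -0.45 ± 0.08 and -0.57 ± 0.08. EIF5B, the subunit-joining GTPase, had 249, 308 and 266 CPM with HCC+ EVs, 245, 227 and 210 CPM with HCC- EVs, and 362, 307 and 366 CPM in the blank, at -0.33 ± 0.08 and -0.60 ± 0.08. Of these, the highest HCC+ library lay just above the lowest blank library. EIF5AL1, a copy of EIF5A that averaged 1.62 CPM with HCC+ EVs, 1.19 with HCC- EVs and 2.21 in the blank, may take reads of EIF5A.

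Of the 5 tested genes of eEF1, 2 fell with HCC+ EVs, and 3 fell and 1 rose with HCC- EVs, while EEF2 was not called with either. Among all genes of at least 10 CPM, 30.6% were called lower with HCC+ EVs, and 49.9% lower and 21.8% higher with HCC- EVs. EEF1A1 had 14424, 13591 and 13175 CPM with HCC+ EVs, 14449, 14922 and 15626 CPM with HCC- EVs, and 13571, 13191 and 12216 CPM in the blank. The HCC- libraries all lay above the blank, and EEF1A1 was the factor called higher with HCC- EVs on the TMM scale, at 0.21 ± 0.05 (adjusted p = 0.000681), where library totals called 13. The difference with HCC+ EVs, 0.08 ± 0.05 (adjusted p = 0.231), was not called on the TMM scale and was called on library totals, at 0.20. Reads of EEF1A1 could also map to its 49 pseudogenes in the table, whose counts came to 0.699% of its own. EEF2 had 4214, 3980 and 4240 CPM with HCC+ EVs, 3908, 4213 and 4359 CPM with HCC- EVs, and 3789, 4731 and 3757 CPM in the blank. The 3 groups overlapped throughout, and the differences of 0.02 (95% interval -0.12 to 0.16) and 0.02 (-0.12 to 0.16) were not called. On library totals EEF2 was called higher with HCC- EVs, at 0.31.

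Of the exchange factor eEF1B, which recharges eEF1A with GTP, EEF1B2, the catalytic alpha subunit, had 455, 461 and 443 CPM with HCC+ EVs, 371, 386 and 409 CPM with HCC- EVs, and 652, 623 and 559 CPM in the blank. The groups did not overlap, at -0.43 ± 0.06 (adjusted p = 1.41e-06) and -0.65 ± 0.06 (adjusted p = 9.68e-11). EEF1D, the delta subunit, had 130, 112 and 119 CPM with HCC+ EVs, 134, 150 and 147 CPM with HCC- EVs, and 126, 149 and 132 CPM in the blank. It was called lower with HCC+ EVs, at -0.17 ± 0.07 (adjusted p = 0.0446), in a call lost in 14 of the 21 fits with a library left out (-0.22 to -0.10 over all 21), and was not called with HCC- EVs, at 0.08. On library totals EEF1D was not called with HCC+ EVs, at -0.05, and was called higher with HCC- EVs, at 0.37. Against 0.24 mg/mL of HCC- EVs, EEF1D and EEF1A1 were both called higher at 1.2 mg/mL, at 0.17 and 0.27. With trends of GC content and transcript length removed, EEF1D was instead called lower in that comparison, at -0.19.

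EEF1A2, the eEF1A paralog best known from muscle and neurons, had 482, 443 and 491 CPM with HCC+ EVs, 321, 336 and 311 CPM with HCC- EVs, and 448, 588 and 479 CPM in the blank. The HCC- libraries lay below all others, at -0.65 ± 0.08 (adjusted p = 1.36e-08), and the HCC+ libraries overlapped the blank, at -0.10 (adjusted p = 0.353). So EEF1A2 was lower and EEF1A1 higher with HCC- EVs. EEF1E1, a small protein of the multi-tRNA synthetase complex rather than an elongation factor in the strict sense, had 13.997, 19.1 and 17.02 CPM with HCC+ EVs, 13.2, 8.31 and 9.57 CPM with HCC- EVs, and 22.7, 17.6 and 19.3 CPM in the blank. It changed by -0.24 (adjusted p = 0.164) and -0.93 ± 0.13 (adjusted p = 6.87e-07).

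Set directly against each other at 1.2 mg/mL, HCC+ EVs left 30 of the 55 factors higher than HCC- EVs and 4 lower. The background was 35.3% called, 22.6% higher and 12.7% lower, among all tested genes, and 40.3% and 12.4% among those of at least 10 CPM, where 29 of 50 factors were higher and 4 lower. The median difference was 0.22, against 0.01 for all tested genes and 0.13 for those of at least 10 CPM. EIF4E3 differed most among the called factors, at 1.06 ± 0.14 (adjusted p = 5.4e-07), followed by EEF1E1 at 0.68 ± 0.13 (adjusted p = 0.000143), EIF1AX at 0.61 ± 0.08 (adjusted p = 9.95e-07) and EEF1A2 at 0.55 ± 0.08 (adjusted p = 9.4e-07). The eIF2 subunits EIF2S1, EIF2S3 and EIF2S2 followed at 0.53, 0.48 and 0.31, and EIF3K at 0.51, EIF4EBP1 at 0.39, EIF4E at 0.37, EIF4H at 0.36, EIF5A at 0.33 and EEF1B2 at 0.22. Some of the factors that fell with each source differed little between the sources: EIF5 at -0.03 (95% interval -0.17 to 0.11), EIF1AD at -0.01 (-0.15 to 0.14), EIF3J at 0.08 (-0.11 to 0.27) and EIF6 at 0.12 (-0.04 to 0.28) were not called.

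The 4 factors lower with HCC+ than with HCC- EVs were EEF1D at -0.26 ± 0.07 (adjusted p = 0.0026), EIF4ENIF1 at -0.21 ± 0.07 (adjusted p = 0.0198), EIF1 at -0.17 ± 0.06 (adjusted p = 0.0308) and EEF1A1 at -0.13 ± 0.05 (adjusted p = 0.0433). The call of EEF1A1 was lost in 16 of the 21 fits with a library left out, that of EIF1 in 3 (without HCC+ replicate 1 or 3 or HCC- replicate 3) and that of EIF4ENIF1 in 3 (without HCC+ replicate 3 or HCC- replicate 2 or 3). The comparison between sources depended on scaling. With library totals the median of all tested genes moved by -0.16, and 13 factors were then higher and 15 lower. EIF4E3, EEF1E1, EIF1AX, EIF2S1, EIF2S3, EIF3K and EEF1A2 were among the 13, at 0.90, 0.52, 0.45, 0.37, 0.32, 0.34 and 0.39. Of the other factors named as higher above, EIF4EBP1, EIF4E, EIF4H and EIF5A stayed called. EIF2S2 and EEF1B2 did not, at 0.15 and 0.06. EIF5 and EIF1AD, not called on the TMM scale, were among the 15 lower, at -0.20 and -0.17.

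At 0.24 mg/mL no factor was called against the blank with HCC+ or HCC- EVs or between the sources, at backgrounds of 0.00511% of tested genes called with HCC+ EVs and 0% in the other comparisons. With HCC+ EVs at 0.048 mg/mL none was called against the blank either, at a background of 0%, nor between 0.24 and 0.048 mg/mL of HCC+ EVs (0%). At an unadjusted p under 0.05 edgeR gave 6 factors with HCC+ EVs at 0.24 mg/mL, 4 with HCC- EVs at 0.24 mg/mL and 2 with HCC+ EVs at 0.048 mg/mL, and DESeq2 called 0 in each after adjustment. In the direct step between the upper doses, 25 factors were lower and 3 higher at 1.2 than at 0.24 mg/mL of HCC+ EVs (background 29.2% called, 15.5% lower and 13.7% higher). With HCC- EVs 38 were lower and 6 higher (background 51.8% called, 28.0% lower and 23.9% higher). Among genes of at least 10 CPM, 27.2% were lower and 15.9% higher with HCC+ EVs, beside 25 and 3 of 50 factors. With HCC- EVs these shares were 49.0% and 20.8%, beside 36 and 6 of 50 factors. The 3 higher with HCC+ EVs, EIF1B, EIF2B4 and EEF1A1, were not called without HCC+ replicate 1 at 1.2 mg/mL or HCC+ replicate 2 or 3 at 0.24 mg/mL. With library totals the splits became 17 lower and 6 higher, and 28 lower and 16 higher.

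**Figure D3:**
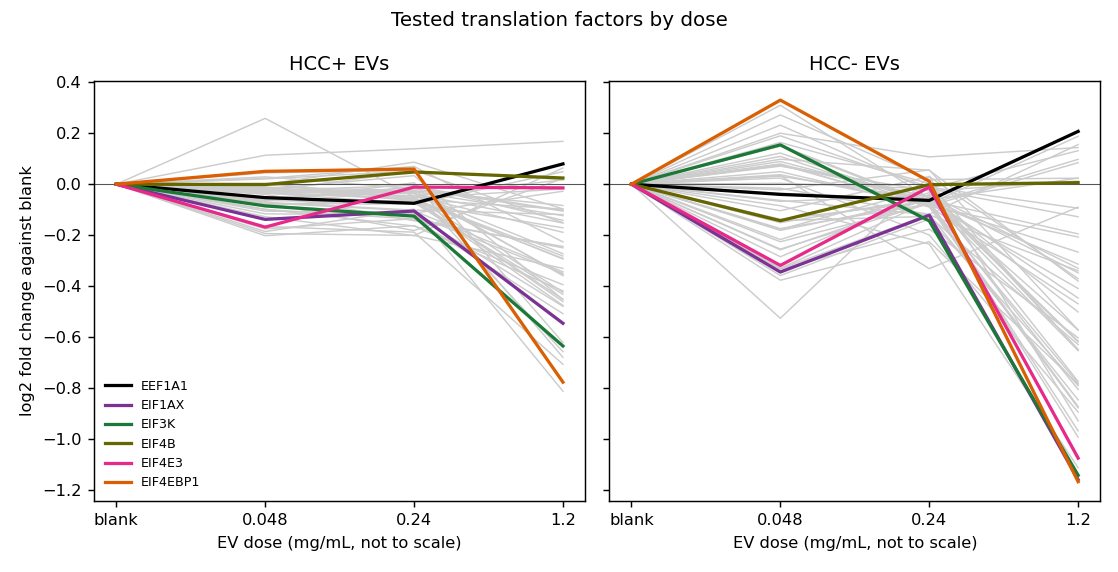
Log2 fold change against the blank of 53 tested factors at 0.048, 0.24 and 1.2 mg/mL of HCC+ EVs (left) and HCC- EVs (right), without EIF4E1B and EIF4EBP3, whose counts were very low; grey lines are single genes and 6 are coloured. The lines stay within about 0.3 of 0 at the lower HCC+ doses and drop at 1.2 mg/mL, where EIF1AX, EIF3K and EIF4EBP1 reach -0.55, -0.63 and -0.78 with HCC+ EVs and -1.16, -1.14 and -1.17 with HCC- EVs.

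At the step from 0.24 to 1.2 mg/mL 27 of the 55 factors were not called with HCC+ EVs and 11 with HCC- EVs. EIF4EBP1 averaged 121 ± 7.04 CPM at 0.048, 122 ± 7.21 at 0.24 and 68.5 ± 4.01 at 1.2 mg/mL of HCC+ EVs, and 147 ± 8.78, 118 ± 11.6 and 52.3 ± 4.36 CPM at the same doses of HCC- EVs, beside 117 ± 21.7 CPM in the blank (SD, n = 3). EIF3K averaged 158 ± 1.82, 154 ± 3.54 and 108 ± 4.46 CPM with HCC+ EVs and 187 ± 18.1, 152 ± 11.1 and 76.2 ± 3.51 CPM with HCC- EVs in the same order, and 168 ± 17.02 CPM in the blank. EIF4E3 averaged 8.32 ± 0.552, 9.25 ± 0.413 and 9.22 ± 1.43 CPM with HCC+ EVs and 7.47 ± 0.384, 9.26 ± 0.733 and 4.42 ± 0.797 CPM with HCC- EVs, and 9.36 ± 1.84 CPM in the blank.

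Whether the sources differed more at 1.2 than at 0.24 mg/mL was tested directly, as the difference of the 2 source differences. It was called for 22 of the 55 factors, 21 with a positive and 1 with a negative value, at a background of 15.1% positive and 6.26% negative among all tested genes and of 28.1% and 7.14% among those of at least 10 CPM, where 20 and 1 of 50 factors were called. The median was 0.20 over these 50 factors and 0.13 over the genes of at least 10 CPM. EIF4E3 gave 1.06 ± 0.20 (adjusted p = 0.000193), EEF1E1 0.86 ± 0.19 (adjusted p = 0.00113), EIF1AX 0.60 ± 0.12 (adjusted p = 0.000452), EIF2S1 0.53 ± 0.11 (adjusted p = 0.000644), EIF2S3 0.51 ± 0.09 (adjusted p = 0.000153) and EIF3K 0.49 ± 0.10 (adjusted p = 0.000637). These 6 were also called positive with library totals, at 0.33 to 0.90, where 7 factors were called negative.

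With HCC- EVs at 0.048 mg/mL 6 factors were called higher and 12 lower than the blank, at a background of 16.4% called, 8.28% higher and 8.16% lower, among all tested genes and of 15.6% and 15.5% among those of at least 10 CPM. Higher were EIF4EBP1 at 0.33 ± 0.09 (adjusted p = 0.0163), EIF6 at 0.31 ± 0.08 (adjusted p = 0.011), EEF2 at 0.27 ± 0.07 (adjusted p = 0.0113), EEF1A2 at 0.23, EIF3F at 0.19 and EIF3I at 0.16. Lower were EEF1E1 at -0.53, EIF3J at -0.38, EIF4E at -0.36 ± 0.07 (adjusted p = 0.00732), EIF1AX at -0.34 ± 0.08 (adjusted p = 0.0105), EIF3E and EIF5B at -0.33, EIF2A at -0.28, EIF5 at -0.26, EIF4G2 at -0.25, EIF2S3 at -0.22, EIF4A2 at -0.18 and EIF4G3 at -0.17. EIF4E had 149, 144 and 145 CPM at this dose, against 211, 164 and 187 CPM in the blank. EEF2 had 5087, 5010 and 4724 CPM, against 3789, 4731 and 3757 CPM in the blank, where 1 blank library lay within the treated range. EEF1E1 had 13.9, 13.3 and 14.1 CPM, against 22.7, 17.6 and 19.3 CPM in the blank, with no overlap. EIF6 had 156, 158 and 127 CPM, against 112, 130 and 114 CPM in the blank, and the highest blank library lay above the lowest treated one.

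These calls moved with the base composition of the genes, and they did not hold without single libraries. The 6 higher factors had a median GC content of 58.9% in their longest transcript, and the 12 lower ones 38.9%. Across the 55 factors, which share the same 6 libraries, the change and the GC content had a correlation of 0.73 as a description, and of -0.19 after the trends of each library with GC content and transcript length had been taken out. No factor was called after that removal. None was called either without blank replicate 1 or without blank replicate 3, while 13 higher and 20 lower were called without blank replicate 2, 0 higher and 4 lower without HCC- replicate 2 at this dose, and 1 higher and 9 lower without HCC- replicate 1. The contrasts of this group with the other lower doses behaved in the same way. HCC+ against HCC- EVs at 0.048 mg/mL gave 2 higher and 3 lower factors (background 3.54% called, 1.08% and 2.46%). HCC- EVs at 0.24 against 0.048 mg/mL gave 3 higher and 9 lower (8.71% called, 3.86% and 4.86%). Among genes of at least 10 CPM the backgrounds were 1.88% higher and 4.82% lower, and 7.13% higher and 9.39% lower. With the trends removed the counts of factors became 0 and 0, and 0 and 2.

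**Figure D4:**
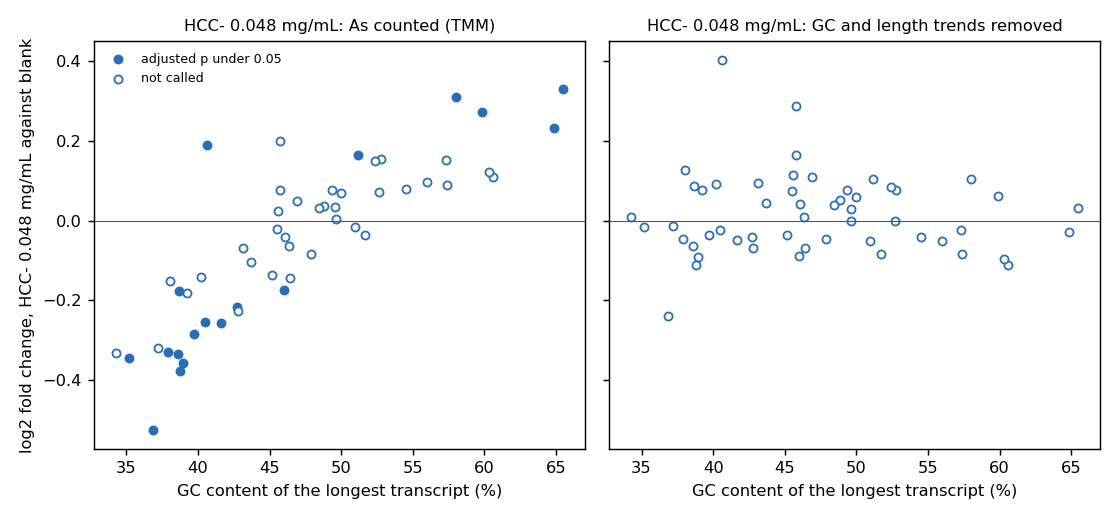
Log2 fold change of HCC- EVs at 0.048 mg/mL against the blank, plotted against the GC content of each factor's longest transcript, as counted (left) and with each library's GC and length trends removed (right), without EIF4E1B and EIF4EBP3. On the left the points run from below 0 at low GC to above 0 at high GC and 18 are filled as called, with EIF3F the high point at 40.6% GC; on the right they spread around 0 and none is called.

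With the same removal the counts at 1.2 mg/mL were 38 lower and 1 higher with HCC+ EVs, 43 lower and 3 higher with HCC- EVs, and 34 higher and 4 lower between the sources. Before the removal, the correlation of change and GC content at 1.2 mg/mL was -0.02 with HCC+ EVs and 0.21 with HCC- EVs. After it, the correlation was -0.29 with HCC+ EVs and -0.09 with HCC- EVs.

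Other genes that act on these factors were taken from lists. Of 18 kinases, phosphatases and mTOR components, 4 rose and 4 fell with HCC+ EVs and 5 rose and 10 fell with HCC- EVs. The backgrounds given above were 15.6% higher and 17.4% lower with HCC+ EVs and 24.8% and 28.5% with HCC- EVs. Among genes of at least 10 CPM they were 18.0% and 30.6% with HCC+ EVs and 21.8% and 49.9% with HCC- EVs. With each source, the shares of this list are near those of genes of at least 10 CPM. AKT1S1, an inhibitory subunit of mTOR complex 1, averaged 124 ± 3.60 CPM with HCC+ EVs, 144 ± 6.87 with HCC- EVs and 86.6 ± 13.6 in the blank (SD, n = 3), and rose by 0.51 ± 0.08 and 0.73 ± 0.08. PPP1R15A, the stress-induced subunit that directs dephosphorylation of eIF2, averaged 37.0 ± 2.56, 58.5 ± 5.23 and 37.2 ± 3.13 CPM in the same 3 groups, and was called with HCC- EVs alone at 0.65 ± 0.08, with a difference between the sources of -0.66 ± 0.08 (adjusted p = 2.18e-07). EIF2AK2, the kinase PKR, averaged 69.9 ± 5.01, 51.2 ± 6.64 and 80.6 ± 9.59 CPM, at -0.20 (adjusted p = 0.0652) and -0.65 ± 0.09. LARP1, which binds the 5' TOP start, was called lower with each source, at -0.27 and -0.21.

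Of 10 genes of alternative initiation, release and recycling, 8 were tested, and 6 of them fell with HCC+ EVs and 8 with HCC- EVs. All list counts here stand beside the 17.4% and 28.5% of all tested genes called lower with HCC+ and with HCC- EVs, or 30.6% and 49.9% of those of at least 10 CPM. ETF1, which recognises stop codons, averaged 308 ± 18.7 CPM with HCC+ EVs, 257 ± 12.04 with HCC- EVs and 428 ± 29.5 in the blank, at -0.47 ± 0.06 and -0.74 ± 0.06. MCTS1, a partner of DENR in re-initiation, changed by -0.60 and -0.79, and ABCE1, which splits ribosomes, by -0.34 and -0.68. Of 6 genes of poly(A) tail binding proteins and their partners, 3 fell with each source, PABPC1 by 0.16 and 0.30 on the log2 scale. Of 15 genes that modify eEF1A, eEF2 and eIF5A, 7 fell with HCC+ EVs, and 8 fell and 1 rose with HCC- EVs. EEF2KMT, the eEF2 lysine methyltransferase, was lower at -0.52 and -1.12. DPH5 and DPH6, enzymes of the diphthamide on eEF2, were lower at -0.37 and -0.65 and at -0.88 and -0.56. Of 10 mitochondrial translation factors 5 fell with HCC+ EVs and 6 with HCC- EVs. Among them MRRF changed by -0.63 and -1.07, MTIF2 by -0.70 and -0.83 and GFM1 by -0.59 and -0.72. Counted over all genes of each list, the HCC- shares of the tail binding, modifying and mitochondrial lists are near 49.9%. That figure covers genes of at least 10 CPM only. These lists also hold genes below it, such as PABPC3, DHPS, DPH6 and TSFM, at 0.239, 2.06, 8.24 and 0.380 CPM in the blank. The shares are therefore not on the same set of genes.

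Library totals ran from 31219343 to 64012757 counts. The 6 libraries of 1.2 mg/mL stood apart from the other 15 on the first principal component, which held 31.5% of the variance, and the 3 blank libraries were spread along the second, from -17.1 to 63.96. The cells expressed the epithelial markers EPCAM, KRT8, KRT18, KRT19 and CDH1, while the intestinal markers CDH17, VIL1 and LGALS4 reached at most 0.95 CPM. The 8 epithelial markers summed to 3878 to 4126 CPM with HCC+ EVs at 1.2 mg/mL, 3264 to 3535 CPM with HCC- EVs at 1.2 mg/mL and 3658 to 4451 CPM in the blank, and to 3744 to 4930 CPM over the lower doses, so that the HCC- libraries at 1.2 mg/mL lay below all others. The sums of endothelial, leukocyte and fibroblast markers were higher in both 1.2 mg/mL groups than in the blank, at a low level. The 5 endothelial markers summed to 3.22 to 4.04 CPM with HCC+ EVs at 1.2 mg/mL, 5.95 to 8.02 CPM with HCC- EVs at 1.2 mg/mL and 0.69 to 1.10 CPM in the blank. The 8 leukocyte markers summed to 3.24 to 4.62, 5.75 to 8.14 and 1.62 to 1.82 CPM, with S100A8 and S100A9 at 0 in all libraries, and the 5 fibroblast markers, nearly all COL1A1, to 21.3 to 30.8, 28.6 to 34.6 and 14.2 to 17.7 CPM, with LUM at 0. Over all libraries PECAM1 and VWF reached 5.10 and 2.98 CPM, and the endothelial markers CDH5, KDR and CLDN5 at most 0.51 CPM. Among leukocyte markers HLA-DRA, CD14 and CD79A reached 4.20, 1.95 and 1.21 CPM, and LYZ, PTPRC and CD3E at most 0.76 CPM. The 8 hepatocyte markers, with APOB at 0 in all libraries, summed to 3.17 to 3.78, 2.32 to 3.43 and 2.2001 to 2.54 CPM, and the 7 erythroid and platelet markers, with PPBP and PF4 at 0, to 3.06 to 3.99, 2.48 to 3.14 and 3.57 to 3.96 CPM. Their part in the changes of the translation factors was not tested.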

How the data were processed

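RNA-seq of 21 HCT-116 libraries in 7 groups of 3 was analysed from the deposited table of raw read counts per gene. Per the submitters' processing notes the tools were cutadapt 3.4, HISAT2 2.2.1 and featureCounts 2.0.1 with the GRCh38 build. The annotation and the handling of strand and multiply mapped reads are not stated in these sources, so counts of copies and overlapping genes are uncertain. The counts were tested with edgeR 4.0.16 in R 4.3.3, with TMM factors, the filterByExpr filter and 1 model of 7 group means (14 residual degrees of freedom). The test was the two-sided quasi-likelihood F test with Benjamini-Hochberg adjustment over 19556 genes, for 14 comparisons, and the steps were tested on simulated data. DESeq2 1.42.0, other scalings, no filter, a replicate block, removal of GC and length trends, only the groups compared and leaving out each library in turn were the alternatives, 28 in all.

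The factors and lists were chosen with earlier results of these data known. Values in every library are given for up to 3 factors per role with the smallest p at 1.2 mg/mL, for paralogs, and for factors called at the lower doses. Sums of counts ran from 31219343 to 64012757 per library, and depth, like the intervals, speaks for counting and library spread only. No 2 libraries of a group agreed within sampling noise (chi-square per degree of freedom 4.56 to 27.0 over 21 pairs).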

Additional observations from a re-analysis of the deposited data

Results flagged for a closer look

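The difference between HCC+ and HCC- EVs differed between 1.2 and 0.24 mg/mL, by a direct test with edgeR's quasi-likelihood test, for 22 factors, 21 positive and 1 negative. Among all tested genes 21.3% were called, 15.1% positive and 6.26% negative, and among those of at least 10 CPM 28.1% positive. With library totals 6 factors were positive and 7 negative. The values, as log2 differences of differences, were 1.06 for EIF4E3, 0.86 for EEF1E1, 0.60 for EIF1AX, 0.53 for EIF2S1, 0.51 for EIF2S3, 0.49 for EIF3K, 0.48 for EIF2B3, 0.44 for EEF1A2 and 0.40 for EIF4E. They were 0.39 for EIF2B1, 0.34 for EIF3M, 0.33 for EIF3E, 0.32 for EIF5A, EIF3I and EIF4H, 0.31 for EIF4EBP2, 0.27 for EIF3A and EIF2S2, 0.26 for EIF3H, 0.24 for EEF1B2 and 0.23 for EIF3B. EEF1D alone had a negative value, -0.26. With a library left out, the call was lost in 14 of the 21 fits for EEF1D, in 9 for EEF1B2, in 6 for EIF2S2 and EIF3H, in 5 for EIF3E, in 3 for EIF3B, and in 1 for EIF2B3 and EIF3A.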

How the results depend on the processing

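Of 235 calls of a factor in a comparison, 229 were kept with RLE size factors, 162 with library totals, 213 without a filter, 233 with the replicate block, 194 with GC and length trends removed, 213 with only the groups compared and 233 with DESeq2. No correlation over 0.1 was seen between deviations of same-numbered libraries (0 of 63 pairs, highest 0.0988). This check cannot exclude a weak pairing, since its cutoff has no reference distribution.

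Against the blank, factors called higher with HCC+ EVs at 1.2 mg/mL were 5 with library totals and 1 with trends removed. With HCC- EVs at 1.2 mg/mL they were 2 with RLE, 13 with library totals, 3 with trends removed and 2 with DESeq2. With HCC- EVs at 0.048 mg/mL they were 0 with trends removed and 3 with only the groups compared, and the lower calls were 0 with trends removed. Between the sources at 1.2 mg/mL, 13 were higher and 15 lower with library totals, and 1 was lower without a filter. Between the sources at 0.048 mg/mL, higher calls were 5 with library totals, 0 with trends removed, 12 with only the groups compared and 6 with DESeq2. Lower calls there were 5 with RLE, 7 without a filter, 7 with the replicate block, 0 with trends removed, 12 with only the groups compared and 10 with DESeq2. At 1.2 against 0.24 mg/mL, higher calls with library totals were 6 with HCC+ EVs and 16 with HCC- EVs, and 3 with HCC- EVs without a filter. At 0.24 against 0.048 mg/mL of HCC- EVs, higher calls were 10 with library totals, 7 without a filter, 5 with the replicate block, 0 with trends removed, 9 with only the groups compared and 9 with DESeq2, and lower calls were 2 with trends removed and 15 with DESeq2. For the change of the source difference with dose, 6 were positive and 7 negative with library totals, and negative calls were 0 without a filter, 2 with the replicate block and 2 with DESeq2.

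With 1 library left out, the calls ranged from 0 to 1 higher and 27 to 31 lower for HCC+ EVs at 1.2 mg/mL against the blank, 1 to 2 higher and 39 to 40 lower for HCC- EVs at 1.2 mg/mL, and 0 to 13 higher and 0 to 20 lower for HCC- EVs at 0.048 mg/mL. They ranged from 23 to 31 higher and 1 to 5 lower between the sources at 1.2 mg/mL and from 0 to 6 higher and 0 to 10 lower at 0.048 mg/mL. From 0.24 to 1.2 mg/mL they were 0 to 3 higher and 20 to 27 lower with HCC+ EVs and 3 to 6 higher and 35 to 39 lower with HCC- EVs, and from 0.048 to 0.24 mg/mL of HCC- EVs 0 to 10 higher and 0 to 13 lower. The change of the source difference gave 16 to 26 positive and 0 to 2 negative calls.

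The sign turned with library totals for EIF4E2 (0.0757), EIF4G1 (0.0880), EIF3G (0.0174) and EIF3L (0.15) with HCC- EVs at 1.2 mg/mL against the blank, for EIF4G2 (-0.0040) and EIF3L (-0.0182) between the sources at 1.2 mg/mL, and for EIF4G1 (0.13), EIF3E (0.0149), EIF1 (0.0418) and EIF3G (0.0729) at 1.2 against 0.24 mg/mL of HCC- EVs. It turned with trends removed for EIF4A2 (0.0881) and EEF1A2 (-0.0278) with HCC- EVs at 0.048 mg/mL against the blank. With that removal it also turned for EEF1D (-0.19, called lower) at 1.2 against 0.24 mg/mL of HCC- EVs. The cause was not tested.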
